A study of Homo sapiens with 20 samples.

Results

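The genes described here are 54 genes of G2/M and mitosis, chosen by name as the cyclins, kinases, checkpoint proteins, kinetochore and spindle components, cytokinesis factors, chromosome proteins and transcription factors that drive a cell from G2 through division. They were taken from 57773 gene rows measured by RNA-seq in LNCaP, an androgen-responsive prostate cancer cell line. All 54 symbols were found, and all 54 passed the filter on low counts in both tables. CKS1B had a second row with no count in any sample, and the row with reads was used.

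In the silencing experiment, LNCaP cells received 20 nM of non-target control siRNA (siNTC) or of a pool of siRNAs against EHMT1 (siEHMT1) for 2 days. Each group had 2 samples. EHMT1, also called GLP, is a histone H3 lysine 9 methyltransferase. In the induction experiment, 4 stable LNCaP lines carried a V5-tagged EHMT1 transgene under a tetracycline-inducible promoter, as wild type (WT) or with lysine-to-arginine changes (K450R, K451R and K450RK451R), and each was given vehicle (Veh) or 0.25 µg/mL doxycycline (Dox) for 2 days. All groups kept the endogenous EHMT1 gene. Doxycycline was given only to lines with a transgene, so an effect of the drug itself and one of the induced protein cannot be told apart. Whether each line is 1 clone is not given in the sources used here.

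The siRNA samples held 5593400 to 12438006 counted reads. In the stable lines, the 2 columns of each condition, which the labels number as replicates 1 and 2, differed by no more than counting noise (chi-square per degree of freedom 0.995 to 1.02 over all genes), so they were summed and counted as 1 library, giving 8 libraries of 8436791 to 12407739 reads. The siRNA samples differed within a group by far more (61.6 for siNTC and 13.4 for siEHMT1 over all genes). Over the 54 members the values were 4.15 for siNTC and 4.99 for siEHMT1. Sample 2 of siNTC stood apart. It was the shallowest, and rRNA-like pseudogenes took 10.0% of its reads, against 0.82% in sample 1. Nothing in the labels says that the siRNA samples, or the 2 columns of a stable-line condition, came from separate cultures, so the p-values measure only the spread between these samples. Levels are given as CPM, read counts scaled to a common library size. Prostate luminal markers such as KLK3 were high in every library (at least 2917 CPM), whereas the leukocyte gene PTPRC and the basal genes KRT5 and TP63 were at 0. Of the other markers of absent lineages, the fibroblast collagen gene COL1A1 was at 15.3 to 40.8 CPM in every library, COL3A1 at 1.77 or less and the macrophage gene CD68 at 0.61 or less, and their part in the results was not tested. EHMT1 itself was at 87.8 and 83.6 CPM in siNTC and at 29.2 and 30.7 in siEHMT1 (log2 fold change -1.51, edgeR quasi-likelihood test, adjusted p = 1.48e-07). With Dox it was higher by 2.90 to 3.38 on the log2 scale in the 4 lines, transgene reads included.

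Mitotic genes are transcribed late in the cell cycle. In resting and early-cycle cells the DREAM complex holds many of them off. In G2, B-MYB (MYBL2) and FOXM1 act with the same MuvB core to switch them on. MuvB contacts a short promoter element, the cell cycle genes homology region (CHR), often found near an upstream CCAAT box. Their products build the spindle, watch over chromosome attachment and split the cell, and their summed mRNA level is widely used as a measure of proliferation in prostate tumours.

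That element was common in the promoters of these genes, whose choice did not use it. RefSeq promoter windows on GRCh38.p14, from 250 bases before to 50 bases after the gene start, were at hand for 45 of the 54 genes. The windows of AURKA, BIRC5, BUB3, CDCA2, FOXM1, RACGAP1, TPX2, TTK and UBE2C were not used here. TTTGAA or TTCGAA, searched on both strands, lay in the last 100 bases of the window in 27 of 45 genes (60.0%), against 5.05% of 27305 promoters. The limit to the last 100 bases was set with the members' expression values known, and over the whole window the shares were 73.3% and 16.6%. CCAAT was in 75.6% of the members' windows and in 35.7% of all windows. Stretches of 30 bases around the element are shown for genes whose values are given below, with the 6 letters of the element in capitals.
CCNB2, chr15:59105105-59105134, plus strand: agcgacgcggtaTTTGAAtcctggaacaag
PLK1, chr16:23678848-23678877, plus strand: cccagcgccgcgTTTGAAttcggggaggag
BUB1B, chr15:40161034-40161063, plus strand: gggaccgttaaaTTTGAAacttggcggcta
KIF4A, chrX:70290058-70290087, plus strand: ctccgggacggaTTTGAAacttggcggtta
MKI67, chr10:128126435-128126464, minus strand: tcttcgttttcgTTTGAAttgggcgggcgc
HMMR, chr5:163460592-163460621, plus strand: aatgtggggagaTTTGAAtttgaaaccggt
DLGAP5, chr14:55191565-55191594, minus strand: cggtgcggcaagTTTGAAtttcgtggaggc
NUF2, chr1:163321958-163321987, plus strand: ggaggcggcaagTTTGAAaagtgatgacgg
KIF18A, chr11:28108149-28108178, minus strand: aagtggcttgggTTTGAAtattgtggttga
KIF20B, chr10:89701602-89701631, plus strand: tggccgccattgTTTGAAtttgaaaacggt
In CCNB2, PLK1 and MKI67 the element began 29 bases before the gene start. In NUF2 and KIF20B it began 16 and 24 bases after it. HMMR and KIF20B carried a second copy 6 bases on, in lower case here, and MKI67 carried another that began 47 bases before the start. A match of letters is a description and was not tested for binding.

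All 54 genes were expressed in every library. In the siRNA samples their levels ran from 6.99 to 241 CPM, and in the lines from 5.67 to 261. Set against transcript length, the mean level over the siRNA samples was highest for CKS2, a small CDK-binding protein, at 123 CPM per kilobase. CDK1, the kinase that triggers mitosis, followed at 113, and PTTG1 (securin) at 107. The lowest were the large spindle-pole protein ASPM at 2.38 and the kinesin KIF18A at 3.08 CPM per kilobase.

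After EHMT1 silencing, 0 of the 54 genes passed an adjusted p under 0.05 in edgeR's quasi-likelihood test, and DESeq2 and limma-voom also called 0. The background was low as well, since 19 of 14532 genes tested (0.131%) passed. At an unadjusted p under 0.05, 6 members were lower and 0 higher, against 5.09% and 4.46% of all genes. Groups did not overlap for 14 members on the lower side and 9 on the higher side, where the shares over all genes were 19.8% and 19.9%. The median log2 fold change of the 54 genes was -0.040, with 25 above 0 and 29 below, and the median of all genes of at least 10 CPM was -0.011. The 95% interval lay within 1.5-fold for 51 of the 54 genes and between 20% lower and 25% higher for 23. An exact permutation test of 2 samples against 2 cannot go below p = 0.333.

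**Figure D1:**
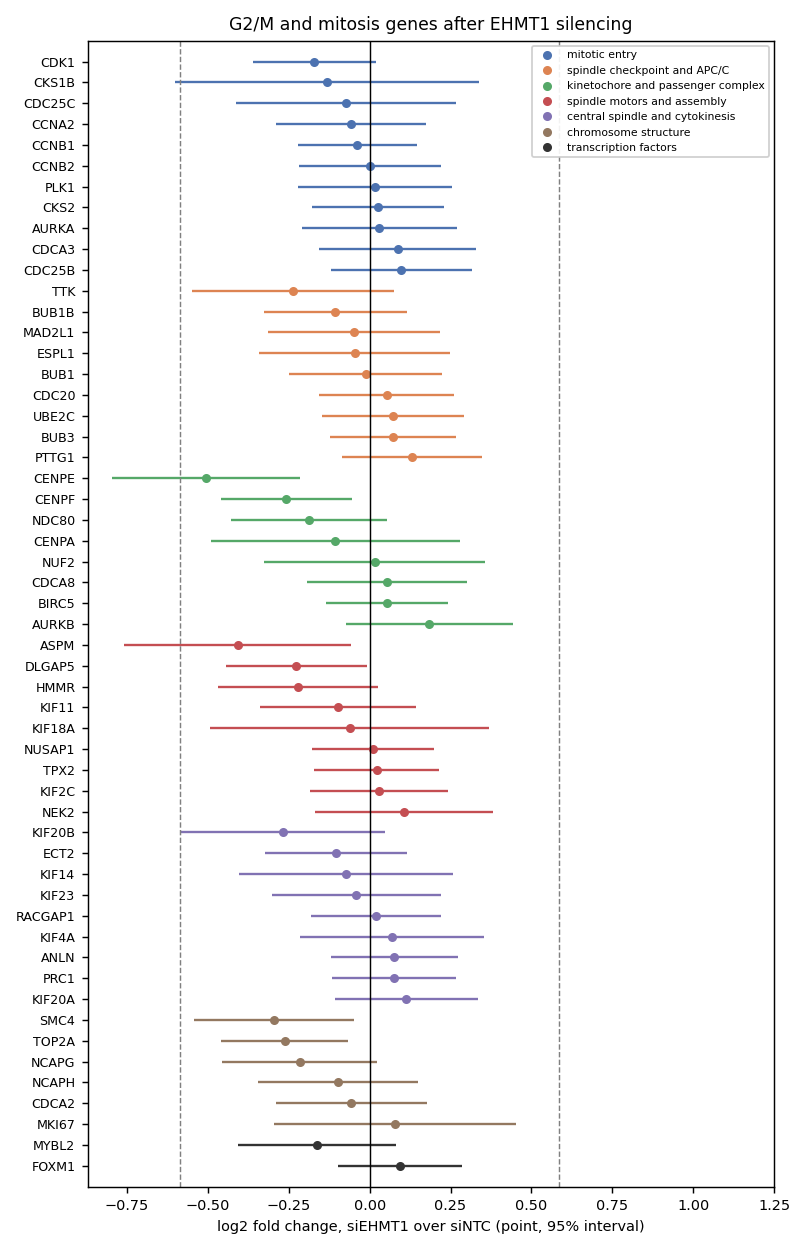
Log2 fold change of each of the 54 genes, siEHMT1 over siNTC (n = 2 samples per group), as a point with its 95% interval from the edgeR fit, ordered and coloured by role. Dashed lines mark 1.5-fold. CENPE lies lowest at -0.50 and AURKB highest at 0.18, and 51 of the 54 intervals stay between the dashed lines.

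Among the 11 genes of mitotic entry the median log2 fold change was 0.00094, and 0 of 11 passed an unadjusted p under 0.05. CCNB1, the mitotic cyclin B1, was at 192 and 198 CPM in siNTC and at 196 and 185 in siEHMT1. Those groups overlapped, and the log2 fold change was -0.038 ± 0.088 (SE). Its partner CDK1 was at 211 and 241 CPM in siNTC and at 202 and 200 in siEHMT1. Both siEHMT1 values lay below both controls, with a log2 difference of -0.17 ± 0.091 (SE, adjusted p = 0.573 in edgeR). It was -0.27 without sample 1 of siNTC and -0.074 without sample 2. The other B-type cyclin, CCNB2, named for its promoter, was at 60.6 and 68.4 CPM against 63.5 and 65.5, also overlapping. PLK1, the polo-like kinase of mitotic entry, was at 69.6 and 55.9 CPM against 61.4 and 65.9. AURKA, which activates PLK1, was at 67.9 and 54.3 against 60.8 and 64.4. In both kinases the siEHMT1 values sat between the controls. CDC25B, a phosphatase that activates CDK1, was the highest of its role at 62.3 and 61.9 against 62.6 and 70.3 CPM.

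The 9 genes of the spindle checkpoint and the anaphase-promoting complex (APC/C) had a median log2 fold change of -0.013. TTK (MPS1), the kinase that starts checkpoint signalling, was at 21.8 and 25.9 CPM in siNTC and at 19.5 and 20.8 in siEHMT1, the lowest of its role at -0.24 ± 0.15 (SE). PTTG1, which restrains separase until anaphase, was the highest at 67.7 and 78.1 against 80.7 and 78.7 CPM, or 0.13 ± 0.10 (SE). BUB1B (BUBR1), a checkpoint protein named for its promoter, was at 61.8 and 61.7 against 60.1 and 54.6. UBE2C, the ubiquitin-conjugating enzyme of the APC/C, was at 64.4 and 60.1 against 62.2 and 68.7. Neither TTK nor PTTG1 passed the test (edgeR adjusted p = 0.638 and 0.722). Without sample 1 of siNTC they were -0.36 and 0.029 on the log2 scale, and without sample 2 they were -0.12 and 0.23.

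The kinetochore and chromosomal passenger genes held both the lowest and the highest member. CENPE, a kinesin that carries chromosomes to the metaphase plate, was at 30.7 and 37.9 CPM in siNTC and at 23.2 and 24.99 in siEHMT1. The groups did not overlap. The log2 fold change was -0.50 ± 0.14 (SE, edgeR adjusted p = 0.192, or 0.0503 with the replicate number as a block). Without sample 1 of siNTC it was -0.65 with an edgeR adjusted p = 0.0470, the 1 member called in any of the alternatives. That fit leaves sample 2, the one that stood apart, as the only control, takes the spread between samples from siEHMT1 and assumes that the lone control varies alike. Without sample 2 of siNTC the value was -0.35 with an edgeR adjusted p = 0.884. CENPF, chosen after its values were seen, was at 120 and 124 CPM against 94.99 and 109 (log2 fold change -0.26 ± 0.097, SE). AURKB, the catalytic subunit of the passenger complex, was at 36.5 and 31.4 against 38.6 and 38.7 CPM. Its partner BIRC5 (survivin) was at 125 and 121 against 129 and 126. Both genes had siEHMT1 samples above both controls, by 0.18 ± 0.12 and 0.054 ± 0.090 on the log2 scale (SE), and neither passed the test (edgeR adjusted p = 0.666 and 0.900). AURKB was at 0.30 without sample 1 of siNTC and at 0.084 without sample 2.

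Among the spindle motors and assembly factors, ASPM was at 24.1 and 35.2 CPM in siNTC and at 19.7 and 24.5 in siEHMT1. The ranges overlapped, and sample 2 of siNTC was the highest (log2 fold change -0.41 ± 0.17, SE, edgeR adjusted p = 0.435, and -0.12 without that sample). DLGAP5 (HURP), which stabilises kinetochore fibres and was chosen after its values were seen, was at 65.3 and 70.6 against 59.6 and 56.4 CPM. NEK2, a centrosome kinase, was the highest of the role at 29.3 and 26.3 against 29.6 and 30.3. In the central spindle and cytokinesis group the kinesin KIF20B was lowest, at 23.7 and 30.4 against 21.2 and 23.5 CPM. KIF20A (MKLP2), which brings the passenger complex to the midzone, was highest at 75.6 and 64.2 against 77.2 and 74.2. Neither KIF20B nor KIF20A passed the test (edgeR adjusted p = 0.598 and 0.776). KIF20B was at -0.45 without sample 1 of siNTC and at -0.085 without sample 2, and KIF20A ran from 0.0014 to 0.24 with 1 sample left out.

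Of the 6 chromosome structure genes 5 had a log2 fold change below 0. TOP2A, the topoisomerase that untangles sister chromatids, was at 138 and 137 CPM in siNTC and at 108 and 121 in siEHMT1. The controls were close together and both siEHMT1 samples lay lower, by -0.26 ± 0.094 on the log2 scale (SE, edgeR adjusted p = 0.345). SMC4, the condensin ATPase, was at 71.1 and 92.1 against 62.1 and 70.5 CPM. Its log2 fold change was -0.30 ± 0.12 (SE), and -0.10 without sample 2 of siNTC. MKI67, which encodes Ki-67, was at 79.5 and 69.6 CPM in siNTC and at 54.3 and 103 in siEHMT1. The 2 siEHMT1 samples lay on opposite sides of the controls, with raw counts of 520 and 1293, and its log2 fold change was 0.079 ± 0.18 (SE). Of the transcription factors, FOXM1 was at 126 and 124 against 138 and 128 CPM, and MYBL2 at 107 and 81.4 against 89.8 and 79.0. The FOXM1 groups did not overlap, the MYBL2 groups did, and neither passed the test (edgeR adjusted p = 0.788 and 0.692).

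**Figure D2:**
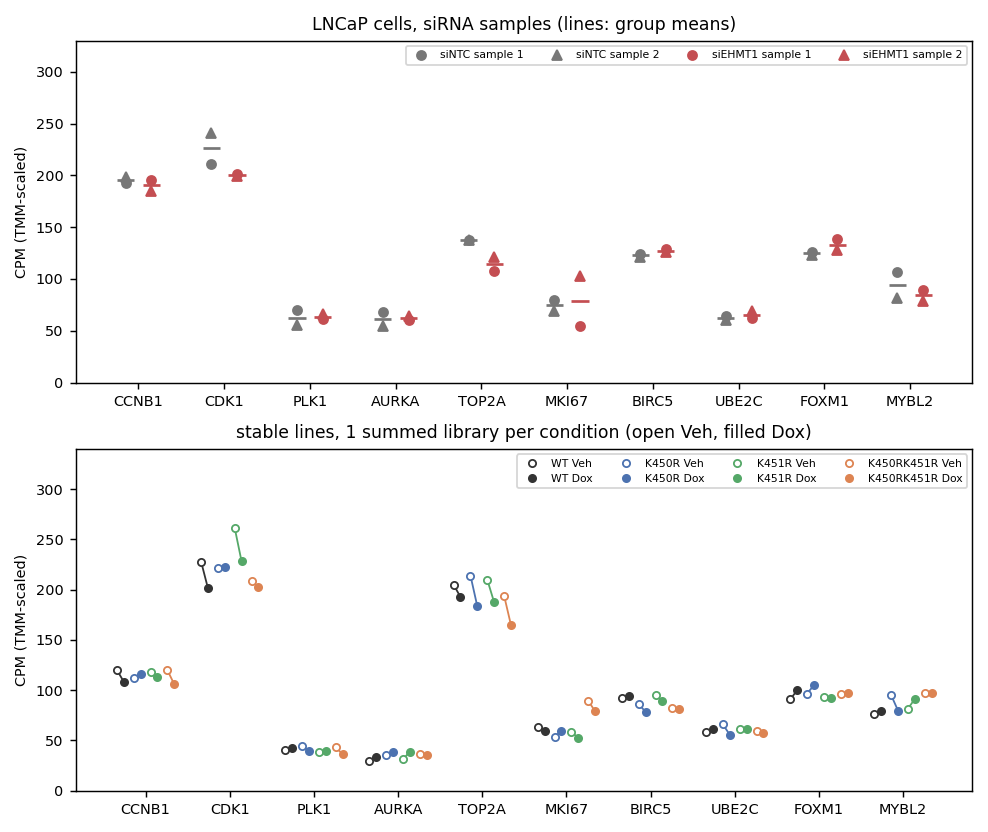
CPM of 10 genes widely used as proliferation markers in the 4 siRNA samples (upper panel, bars for group means) and in the 8 libraries of the stable lines (lower panel, open for Veh, filled for Dox, joined within a line). TOP2A lies lower in both siEHMT1 samples and lower with Dox in all 4 lines, and the siEHMT1 values of MKI67, 54.3 and 103 CPM, lie on either side of the controls.

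The siRNA differences varied with base composition and with transcript length, a pattern looked at after the members' values were seen. Across the 54 genes, the log2 fold change and the GC content of the canonical transcript had a Spearman correlation of 0.65, against 0.29 across 9301 genes of at least 10 CPM. The points share the same 4 libraries and are not independent. Of the 18 members with the lowest GC content (34.3% to 39.8%), which include CENPE, ASPM, SMC4, TOP2A, CDK1 and DLGAP5, 16 had a negative value and the median was -0.20. The 1456 genes in the same GC range had a median of -0.097. The 18 members with the highest GC content (46.3% to 60.0%) had a median of 0.054. The low-GC members were also longer, with a median transcript of 4659 bases against 2621. With transcript length the Spearman correlation was -0.34 over the members and -0.28 over the 9301 genes. Whether the differences go with GC content or with length was not tested.

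The same gradient lay between the 2 control samples. Sample 2 minus sample 1 of siNTC had a correlation with GC content of -0.72 over the members and -0.41 over the 9301 genes, and 16 of the 18 low-GC members were higher in sample 2. Between the 2 siEHMT1 samples the correlation over members was -0.0051. Against sample 1 of siNTC alone, the siEHMT1 samples gave 0.11 and 0.23, and against sample 2 they gave 0.64 and 0.80. Without sample 2 of siNTC the members' correlation was 0.18 and 11 of the 18 low-GC genes were below 0. After a correction for GC content, chosen after seeing the data, it was 0.30, and the log2 fold changes of CENPE, ASPM, SMC4 and TOP2A were -0.41, -0.31, -0.20 and -0.19.

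**Figure D3:**
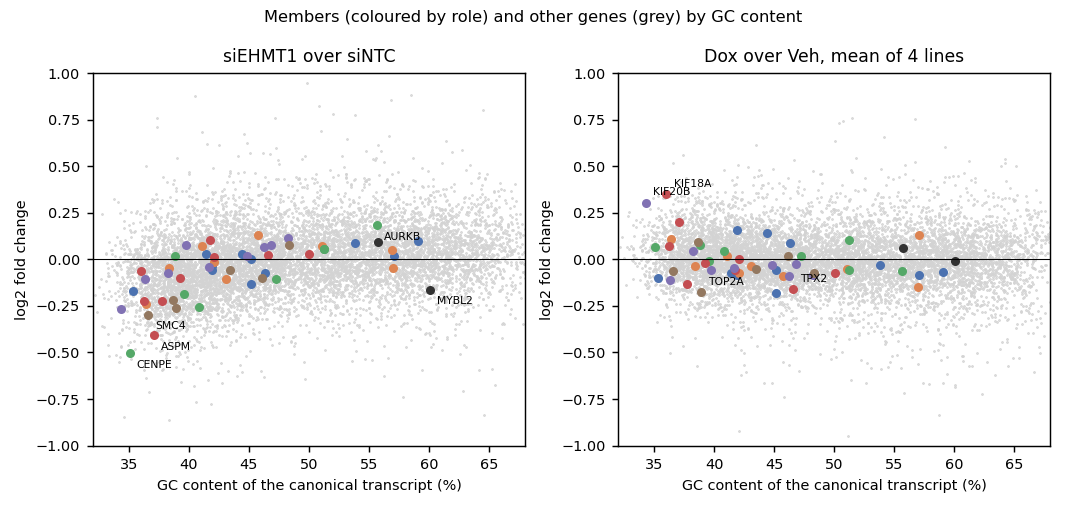
Log2 fold change against the GC content of the canonical transcript, for the 54 members (coloured by role as in the plot of all members) and the other genes of at least 10 CPM (grey), with siEHMT1 on the left and the mean of the 4 Dox ratios on the right. Genes beyond 1 in either direction are not drawn. On the left the members below 40% GC lie mostly under 0 and CENPE is lowest, and on the right KIF18A and KIF20B lie highest at low GC.

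The Dox comparison, with the 4 lines as replicates, asked what is common to induction of wild-type and mutant EHMT1. No member passed an adjusted p under 0.05 in edgeR, and DESeq2 and limma-voom called 0 as well, where 298 of 14105 genes (2.11%) passed in edgeR. At an unadjusted p under 0.05, TOP2A, TPX2 and CDC20 were lower and 0 members higher, against 7.55% and 6.86% of all genes. The median log2 fold change was -0.037 (-0.015 without K450R), and the 95% interval lay between 20% lower and 25% higher for 44 of the 54 genes and within 1.5-fold for 52. Across all 4 lines, 3 members had higher and 7 had lower values with Dox, against 10.5% and 11.6% of the 9083 genes of at least 10 CPM. The member counts cover all 54, and KIF18A, among the 3 that were higher, lay below 10 CPM in every library of the lines.

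TOP2A was at 205, 214, 210 and 194 CPM with Veh in WT, K450R, K451R and K450RK451R, and at 193, 184, 188 and 165 with Dox. Each Dox value lay below its own Veh value, and the fitted difference was -0.17 ± 0.056 (SE, edgeR adjusted p = 0.105). TPX2, which activates AURKA on the spindle, was at 137, 140, 146 and 142 CPM with Veh and at 135, 119, 117 and 135 with Dox, also lower in all 4 lines (edgeR adjusted p = 0.201). CKS1B, a CDK-binding protein, had log2 ratios of -0.25, -0.052, -0.021 and -0.41 in the same order.

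Of the 3 members that were higher with Dox in all 4 lines, KIF18A had the largest mean. KIF18A, a kinesin that dampens chromosome movement at metaphase, was at 6.0, 5.7, 8.8 and 6.9 CPM with Veh and at 9.2, 7.6, 9.9 and 7.8 with Dox. The fitted difference was 0.34 ± 0.17 (SE, edgeR adjusted p = 0.381). ASPM went the same way in all 4 lines, by 0.067, 0.35, 0.26 and 0.13 on the log2 scale. CDCA8 (borealin), of the passenger complex, was the third such gene, at 0.048 to 0.15. KIF20B, with a mean of 0.30, was lower in WT (-0.11) and higher in 3 lines, and CCNA2 (cyclin A2) and AURKA, with means of 0.16 and 0.14, were also higher in 3 lines.

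CDK1 was at 228, 222, 261 and 209 CPM with Veh and at 202, 223, 228 and 203 with Dox. CCNB1 was at 120, 112, 118 and 120 with Veh and at 109, 117, 113 and 106 with Dox. In both genes 3 lines were lower and K450R was higher. MKI67 was at 63.9, 53.9, 58.6 and 89.6 CPM with Veh and at 59.7, 59.2, 52.6 and 79.1 with Dox, and K450RK451R was the highest line under both treatments, a difference that rests on 1 library per condition and was not tested. FOXM1 ran from 90.8 to 96.7 CPM with Veh and from 92.1 to 105 with Dox.

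**Figure D4:**
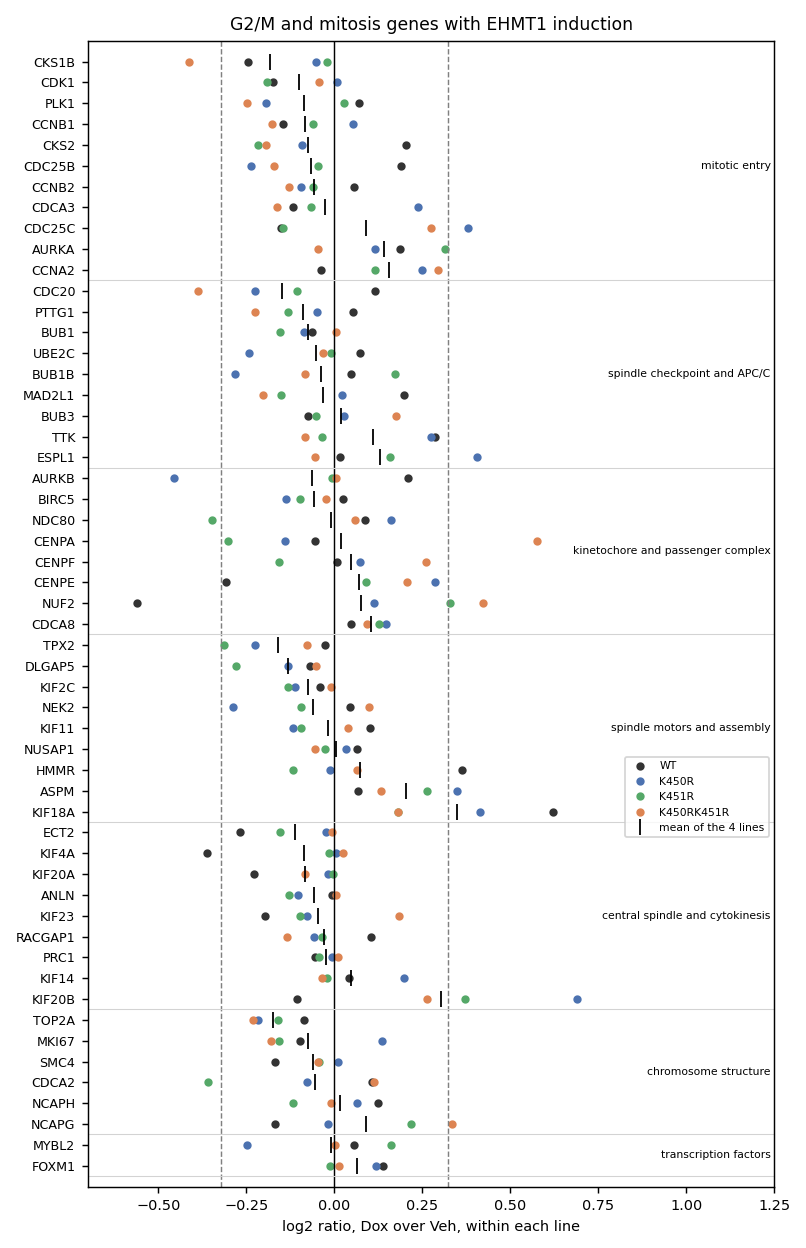
Log2 ratio of Dox over Veh for each of the 54 genes in each of the 4 lines (points, 1 summed library per condition) with the mean of the 4 lines (bar), ordered by role. Dashed lines mark 20% lower and 25% higher. KIF18A has the highest mean at 0.35, and NUF2 in WT and KIF20B in K450R reach -0.56 and 0.69.

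Within a line there was no replicate, so ratios are described without a test, with counting error only. Of the 52 members of at least 10 CPM, WT had 1 that was at least 25% higher with Dox (HMMR, 52.3 to 67.3 CPM) and 2 that were at least 20% lower (NUF2, 18.7 to 12.6 CPM, and KIF4A, 23.6 to 18.4). The shares over all genes were 4.75% and 6.32%. In K450R, KIF20B (7.5 to 12.2 CPM), ESPL1, CDC25C and ASPM were higher by that margin and AURKB (38.2 to 27.8 CPM) lower, against 8.30% and 6.86%. In K451R, KIF20B and NUF2 were upward and CDCA2 and NDC80 downward, against 8.01% and 7.34%. In K450RK451R, NUF2 and NCAPG were upward and CKS1B and CDC20 (108 to 82.3 CPM) downward, against 9.38% and 8.30%. KIF20B in K450R was the 1 such member past 1.5-fold in any line. The genes named here for a single line were chosen after their values were seen, apart from those already described.

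The medians over these 52 members were 0.021, -0.016, -0.056 and -0.018 in WT, K450R, K451R and K450RK451R, where those of all genes of at least 10 CPM were 0.010, 0.0030, -0.011 and -0.014. Of the 52, 28, 24, 12 and 23 were higher with Dox in the same order, where 52.4%, 50.5%, 47.8% and 47.5% of all genes of at least 10 CPM were. The correlation with GC content over the 54 members was 0.16, -0.36, 0.059 and -0.31 in the same order of lines. Over 8943 genes of at least 10 CPM it was -0.036, -0.21, 0.10 and 0.016. Across members the siEHMT1 difference and the mean Dox ratio had a Spearman correlation of -0.27.

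The difference between lines was tested as an interaction, with 2 residual degrees of freedom. In each such test the single line has 1 library per condition, so the spread comes from the other 3 lines alone and the single line is assumed to vary alike. For the Dox effect in WT against the 3 mutants, 0 members passed an adjusted p under 0.05 in edgeR, DESeq2 and limma-voom, and 23 genes (0.163%) passed in edgeR. At an unadjusted p under 0.05, 4 members were higher (CDC20, CKS2, HMMR and CDC25B) and 1 lower (NUF2), against 3.47% and 3.62% of genes. NUF2, a subunit of the NDC80 complex that binds microtubules, had log2 ratios of -0.56 in WT and 0.11, 0.33 and 0.42 in K450R, K451R and K450RK451R. The interaction was -0.86 (edgeR adjusted p = 0.415). CDC20, the activator of the APC/C, had ratios of 0.12 in WT and -0.22, -0.11 and -0.39 in the mutants, with an interaction of 0.36 (edgeR adjusted p = 0.563).

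For K450RK451R against the other lines, 0 members passed in edgeR, DESeq2 and limma-voom, and 2 genes (0.0142%) passed in edgeR. CENPF was higher and CDC20 lower at an unadjusted p under 0.05, against 3.86% and 3.52% of genes. CENPF had a log2 ratio of 0.26 in K450RK451R and of 0.0083, 0.073 and -0.16 in WT, K450R and K451R (edgeR adjusted p = 0.676). An interaction that misses the threshold in this design does not show that the lines respond alike.

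Other genes of the same processes, from lists written out by role, mostly missed the threshold as well. Of 57 other mitotic genes 0 passed an adjusted p under 0.05 with siEHMT1 in edgeR, and 2 were higher and 9 lower at an unadjusted p under 0.05, where 4.46% and 5.09% of all genes were. Of 16 APC/C genes 2 were higher and 2 lower at that level, and 0 passed the adjusted test. With Dox, where 2.11% of all genes passed the adjusted test, 1 of the 57 did, PSRC1, a spindle protein, which fell by 0.36 on the log2 scale, with log2 ratios of -0.25, -0.30, -0.55 and -0.35 in WT, K450R, K451R and K450RK451R (edgeR adjusted p = 0.0080). Of 13 genes of the G2 checkpoint and CDK inhibitors 1 passed, WEE1, the kinase that holds CDK1 inactive before mitosis, with ratios of -0.14, -0.28, -0.57 and -0.39 and a fitted value of -0.34 (edgeR adjusted p = 0.00285). Of 36 G1/S and replication genes 1 passed, PCNA, the sliding clamp of DNA replication, at 0.36 (edgeR adjusted p = 0.00268). At an unadjusted p under 0.05 with Dox, 7 genes of that list were higher and 0 lower, against 6.86% and 7.55% of all genes. At that level 3 of the 57 other mitotic genes were higher and 2 lower, as were 1 and 2 of the APC/C genes, 1 and 3 of the G2 checkpoint list and 1 and 1 of the DREAM and MuvB genes. With siEHMT1 the counts were 0 higher and 2 lower in the G2 checkpoint list, 0 and 1 in the DREAM and MuvB list and 0 and 0 in the G1/S list. Of 11 DREAM and MuvB genes 0 passed in either comparison.

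**Figure D5:**
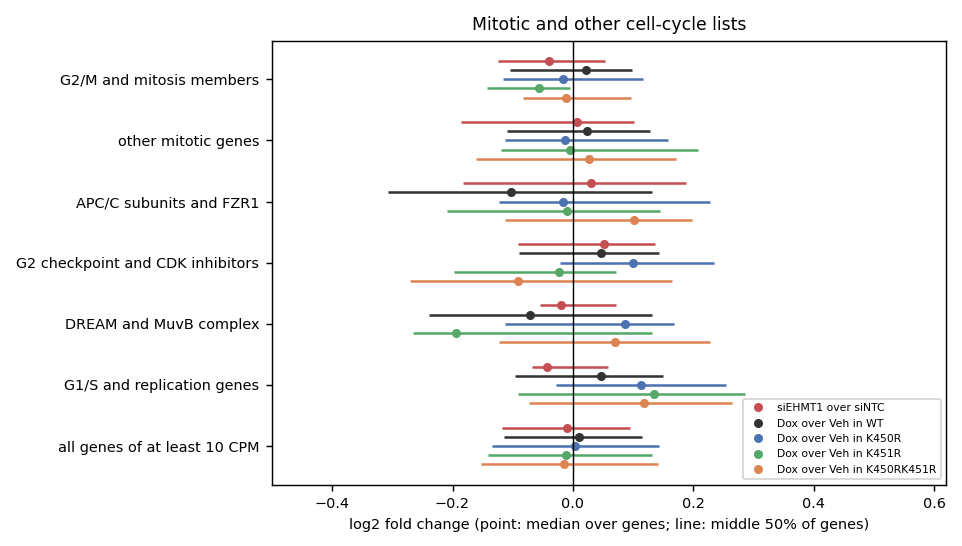
Median log2 fold change (point) and the interquartile range over genes (line) for the members, 5 other cell-cycle lists and all genes of at least 10 CPM, with siEHMT1 and with Dox in each line. The members' medians lie between -0.056 and 0.021. The medians of the replication list lie above 0 with Dox in all 4 lines, and its interquartile ranges cross 0 in each.

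The genes with and without the promoter element in the last 100 bases of the window gave like medians with siEHMT1. The median was -0.047 over the 27 genes with TTTGAA or TTCGAA there and -0.050 over the 18 without, among the 45 with a window. Over the whole window 33 of the 45 carried the element, so some of the 18 have it further upstream. With Dox the medians were -0.024 and -0.062. The first set holds MKI67, PLK1 and CENPF, and the second holds CENPE, TOP2A and CDK1.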

How the data were processed

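RNA was sequenced from 20 LNCaP samples, 4 with siRNA and 16 from stable lines. Total RNA libraries were made with a stranded kit and aligned to hg19. The submitters' processing notes name FastQC 0.11.9, STAR 2.7.2 and featureCounts 1.6.4, and the strand setting and annotation release are not given in the sources used here. The 2 tables that the authors deposited hold whole-number read counts for each gene, with no normalization. All columns were mapped to samples by name.

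Counts were scaled by TMM in R 4.3.3 and tested with edgeR 4.0.16 (quasi-likelihood F test, filterByExpr by group, Benjamini-Hochberg adjustment over all genes tested). The siRNA groups were compared without a block. In the stable lines the columns of a condition were summed, and Dox was fitted with the line as a term. CPM in the text are TMM-scaled. Log2 ratios within lines used a prior count of 0.5 and genes of at least 10 CPM. Intervals are at the 95% level, and those within lines cover counting error only. DESeq2 1.42.0 and limma 3.58.1 gave alternatives. GC content and length came from GENCODE canonical transcripts on GRCh37. The fits were also run on simulated counts with the same spread between samples (dispersion) set for every gene. That setting has neither the observed spread between the siRNA samples nor their GC gradient, so it cannot show how the fits behave on them. The members and lists were chosen with earlier results of these data known. Genes named by rule were the lowest and highest of each role with siEHMT1, the 5 largest mean Dox ratios of one sign and 10 proliferation markers.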

Additional observations from a re-analysis of the deposited data

How the results depend on the processing

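The count of members called stayed at 0 in all comparisons and alternatives except 1, the siRNA fit without sample 1 of siNTC, where CENPE passed in a fit with a lone control whose spread was taken from siEHMT1, so that leaving out each siRNA sample gave 0 to 1. The members' median siRNA log2 fold change, -0.040, was -0.0379 with DESeq2, -0.0187 with limma-voom, -0.0163 with upper-quartile scaling, -0.0356 without a filter, -0.0363 without the rRNA-like pseudogenes, -0.0377 with the legacy edgeR test and -0.00839 with the GC correction, and ran from -0.0501 to 0.00977 with 1 sample left out. These shifts were set against the spread between the medians of the 2 numbered pairs, which was small. The labels do not say whether siRNA samples of the same number belong together. Deviations of same-numbered samples had a Pearson correlation of 0.00060 over 14532 genes and 0.029 over the members. With 2 samples per group this cannot show whether they were paired. With a replicate block, 118 genes were called in place of 19, the members' median was -0.0409, and 0 members passed. CENPE came closest, with an edgeR adjusted p = 0.0503. The number of genes called over the whole table was 12 with DESeq2 and 15 with limma-voom, and 38 to 110 with 1 sample left out.

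The correlation of the siRNA differences with GC content ran from 0.178 to 0.776 with 1 sample left out, and was 0.296 with the GC correction. The low-GC members below 0 numbered 11 to 17 with 1 sample left out. For the lines, the members' median, -0.037, ran from -0.0403 to -0.0152 with 1 line left out. DESeq2 called 140 genes, the fit without the line term 4, and leaving out 1 line 114 to 501. Limma-voom called 43 genes for WT against the mutants, and no filter 15. Within lines, members past 1.5-fold numbered 0 in WT, 1 in K450R, 0 in K451R and 0 in K450RK451R. K450R had 10 members at least 25% higher or 20% lower from the columns numbered 1 alone and 8 from those numbered 2. The WT median was 0.0387 with upper-quartile scaling, and the K450R median 0.00362 with it and -0.0215 with DESeq2 size factors. Single genes near 0 changed sign. With siEHMT1, PLK1 was -0.00244 with limma-voom and -0.0409 with the GC correction, which also gave KIF18A 0.0282 and TPX2 -0.00346. With Dox, MYBL2 was 0.00762 with upper-quartile scaling, 0.000825 without a filter and 0.00438 with the GC correction, CENPE was -0.0632 from columns numbered 1, and NEK2 was 0.0255 from columns numbered 2. With 1 siRNA sample left out, the ranges that crossed 0 were -0.457 to 0.467 for MKI67, -0.347 to 0.0503 for MYBL2, -0.239 to 0.0982 for KIF18A, -0.0505 to 0.0895 for TPX2, -0.0795 to 0.00401 for CCNB1, -0.129 to 0.187 for PLK1 and -0.119 to 0.203 for AURKA. With 1 line left out they were -0.148 to 0.0694 for AURKB, -0.109 to 0.0157 for NEK2, -0.0621 to 0.0703 for MYBL2 and -0.0919 to 0.00973 for UBE2C. The cause of these shifts was not tested. The GC correction was chosen after seeing the data. The median SE of the members was 0.114 with siEHMT1 and 0.0794 with Dox, which sets the size of difference that these fits could resolve.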
